A study of Mus musculus with 3 samples.

Results

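Ephrins, Eph receptors, semaphorins and plexins were described across the cell clusters and genotypes of a single-cell RNA sequencing study of the mouse pituitary. Genes were chosen by name alone: every gene symbol of the form Efna or Efnb, Epha or Ephb, Sema and Plxna to Plxnd, each followed by a number or, for the semaphorins, a number and a letter. The names matched 51 of the 55293 gene symbols: 8 ephrins, 14 Eph receptors, 20 semaphorins and 9 plexins. Of these, 49 had 50 or more counts over all cells and are described here (8, 13, 20 and 8 by family). Epha8 had 16 counts and Plxnb3 had 28, and both are named only.

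The study compared dissociated pituitaries of TpitWT, TpitHT and TpitKO mice, with 1 library per genotype. Tpit is the protein encoded by Tbx19, a T-box transcription factor needed for the pituitary cells that make the hormone precursor proopiomelanocortin (Pomc), namely the corticotropes and melanotropes. The labels do not spell out HT, describe the allele, or give the animals' number per library. Live cells were selected with propidium iodide, libraries were made with 10x Chromium 3′ v3 reagents and the authors assigned each cell to 1 of 21 clusters, numbered 0 to 20.

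Ephrins are membrane-bound ligands of the Eph receptor tyrosine kinases, so that signalling needs contact between cells and can run in both directions. Ephrins of class A are held by a lipid anchor and mostly bind EphA receptors, whereas class B ephrins span the membrane and mostly bind EphB receptors. Semaphorins are secreted (class 3) or membrane-bound (classes 4 to 7) ligands of the plexins, and most class 3 semaphorins also need a neuropilin coreceptor. These families are best known for steering axons, and several members also shape blood vessels: ephrin-B2 and EphB4 mark arteries and veins, and plexin-D1 on endothelial cells is the receptor of semaphorin 3E.

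The libraries held 11222 (TpitWT), 12839 (TpitHT) and 13413 (TpitKO) cells and 107289047, 152382545 and 133252735 counts. The 49 described genes together made up 243, 229 and 260 counts in these libraries when totals are scaled to 1000000 counts (CPM). Tbx19 itself was at 17.6, 12.4 and 0.690 CPM over all cells, low in the TpitKO library. Clusters were named here by lists of marker genes: among hormone cells lactotrope-like (cluster 0), corticotrope-like (6), somatotrope-like (1 and 2), thyrotrope-like (14), melanotrope-like (7) and gonadotrope-like (3), and among the rest stem-cell-like (10), fibroblast-like (15), endothelial-like (9), pituicyte-like (18), lymphoid-like (16), macrophage-like (8 and 19) and cycling (20). Clusters 4, 5, 11, 12, 13 and 17 kept their numbers. Cluster 12 had 4 erythroid markers, all hemoglobin genes, and Prl among its 10 leading genes, and was left without a name. Cluster 4 was led by the prolactin gene Prl. Cluster 5 was led by Car10 and had 1 somatotrope marker among its leading genes, but its level of the growth hormone gene Gh was 425394, 453374 and 460747 CPM. The TpitKO library held no cells of clusters 6 and 7, 17 of cluster 2, and 2457 of cluster 5 against 28 and 24 in TpitWT and TpitHT. Clusters 1, 2 and 5 were therefore also compared together, as the somatotrope clusters. In 115 cases the same cell barcode occurred in 2 libraries.

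All levels below are CPM within a cluster of 1 library, given in the order TpitWT, TpitHT, TpitKO, from libraries with at least 50 cells in that cluster unless the cell number is given. With 1 library per genotype no difference between genotypes could be tested. The intervals are exact 95% intervals for counting error only and leave out the spread between cells and animals. In a sum over many cells, fewer cells that express a gene and less RNA per cell cannot be told apart. A gene was said to be led by a cluster where that cluster had the highest CPM in every library with 50 cells in it.

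**Figure D1:**
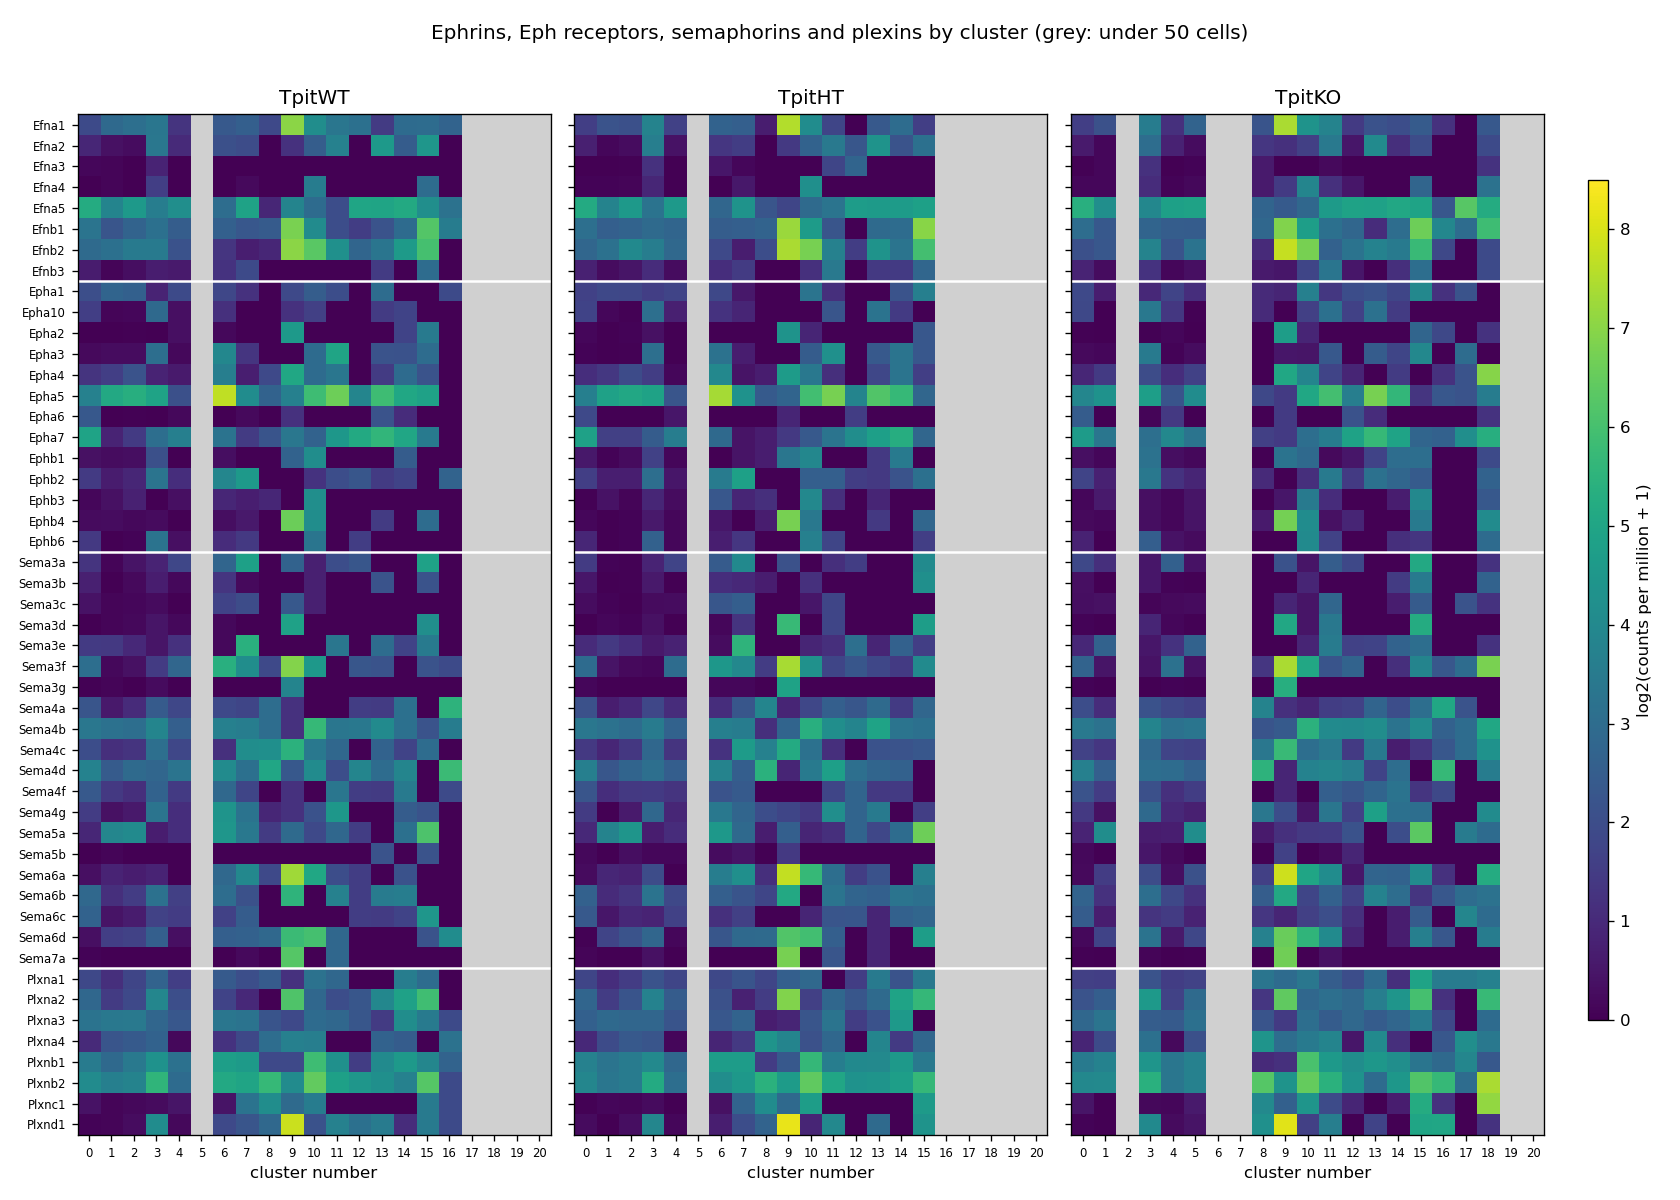
Levels of the 49 genes (rows, by family) in the 21 clusters (columns) of each library, as log2(CPM + 1). Grey columns held under 50 cells. The endothelial-like cluster 9 is the brightest column for 13 genes, and Epha5 is brightest in the corticotrope-like cluster 6, which the TpitKO library lacks.

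The endothelial-like cluster 9 led 13 of the 49 genes, more than any other cluster, and did so in all 3 libraries: the ephrins Efna1, Efnb1 and Efnb2, the receptors Epha2 and Ephb4, the semaphorins Sema3f, Sema3g, Sema4c, Sema6a, Sema6b and Sema7a, and the plexins Plxna2 and Plxnd1. By the share of cells with a count in place of CPM, this cluster led 8. The share of all genes that cluster 9 led by the CPM rule was not computed, so the 13 has no background beside it. The stem-cell-like cluster 10 led 4 genes in all 3 libraries (Efna4, Ephb6, Plxnb1 and Sema4b), and the pituicyte-like cluster 18 led 4 in TpitKO, where alone it had 50 cells. Of the 49 genes, 17 had no single leading cluster, for example Epha7, Ephb1 and Plxna4. Summed over the 8 ephrins, cluster 9 reached 381, 504 and 506 CPM, against 135, 179 and 176 CPM in the stem-cell-like cluster and 56.3, 52.4 and 54.3 CPM in the lactotrope-like cluster.

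Plxnd1, the plexin that receives semaphorin 3E, was many times higher in endothelial-like cells than in any other cluster of 50 cells. It was at 226, 297 and 279 CPM in cluster 9, and the next cluster of each library was at 16.5, 19.7 and 31.5 CPM. It was counted in 35.7% of endothelial-like cells in TpitWT (exact Clopper-Pearson interval 29.2 to 42.7), 52.0% in TpitHT and 50.7% in TpitKO. In lactotrope-like cells, where the gene was near 0, these shares were 0.0602%, 0.136% and 0.0634%, with 9013, 11496 and 9319 mean counts per cell against 3610, 4343 and 4250 in cluster 9. Gonadotrope-like cells were the other large population with Plxnd1, at 16.5, 13.9 and 15.5 CPM. Endothelial-like cells were thus highest in all 3 libraries.

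Sema7a, a membrane semaphorin held by a lipid anchor, was nearly confined to the same cells: 91.8%, 92.3% and 97.5% of all its counts lay in cluster 9. Its level there was 74.9, 107 and 98.9 CPM. Sema3g, a secreted semaphorin, was also counted mostly there (71.4%, 81.4% and 95.8% of its 14, 43 and 95 counts). Both genes were at 0 counts in the stem-cell-like cluster of every library.

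The ligand and receptor pair Efnb2 and Ephb4 was led by the endothelial-like cluster on both sides. Efnb2 was at 130, 169 and 212 CPM there and at 79.8, 107 and 106 CPM in the stem-cell-like cluster. Ephb4 was at 96.4, 107 and 105 CPM in cluster 9 and at 16.9, 9.58 and 16.4 CPM in the stem-cell-like cluster. The fibroblast-like cluster had Efnb2 at 62.6, 61.2 and 52.7 CPM but Ephb4 at only 6.95, 5.92 and 10.2 CPM. Relative to cluster 9, stem-cell-like and fibroblast-like cells thus had more of the ligand's level than of the receptor's.

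In 2 further pairs, Efna1 with Epha2 and Sema6a with its receptor Plxna2, both partners were highest in the endothelial-like cells. Efna1 was at 128, 184 and 169 CPM and Epha2 at 22.8, 19.7 and 25.6 CPM. Sema6a was at 157, 208 and 231 CPM, and the next cluster of each library was at 32.5, 50.8 and 36.7 CPM. Plxna2 was at 70.9, 116 and 84.4 CPM, close to the fibroblast-like cluster at 59.1, 49.3 and 62.9 CPM. For 9 of the 13 genes the interval in cluster 9 lay above that of the next cluster in all 3 libraries, and the exceptions were Efnb1, Epha2, Plxna2 and Sema4c. Nrp1 and Nrp2, the neuropilin coreceptors of class 3 semaphorins, were at 558, 582 and 547 CPM and at 284, 359 and 349 CPM in the same cells.

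**Figure D2:**
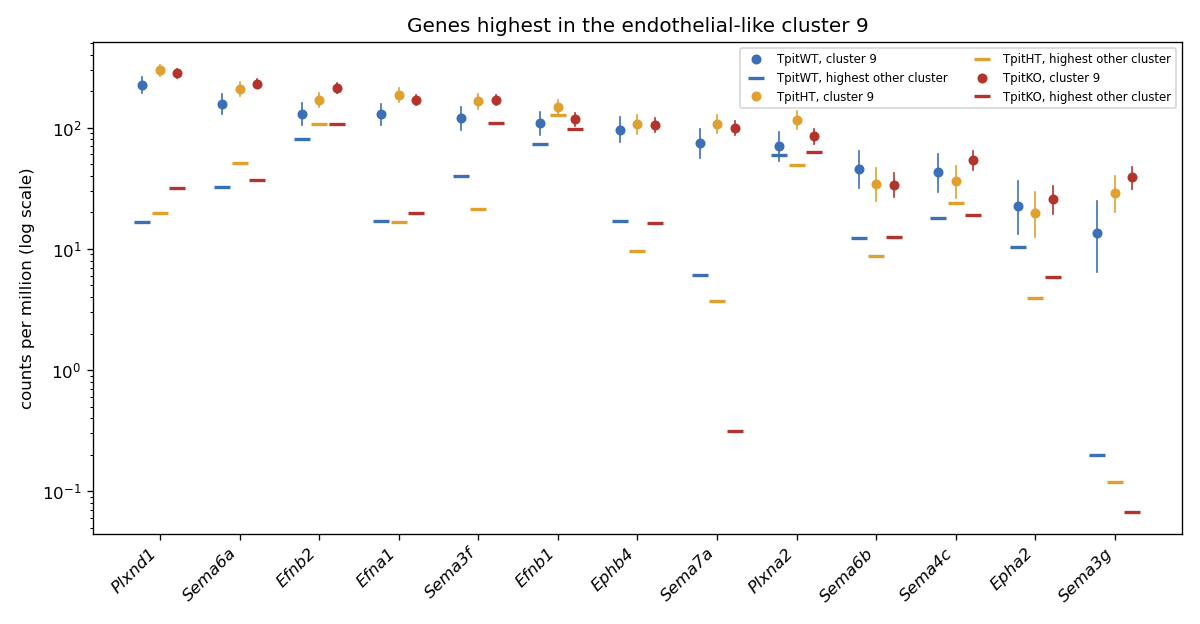
The 13 genes led by the endothelial-like cluster 9: level in cluster 9 (points, with 95% counting intervals) and in the highest other cluster of at least 50 cells (bars), by library, on a log axis of CPM. Plxnd1, Sema7a and Sema3g lie far above the next cluster, while Efnb1 and Plxna2 lie close to it. A missing bar stands for a level of 0.

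Over 47 genotype and cluster columns with at least 50 cells, the gene whose log2(CPM + 1) was most alike to that of Plxnd1 was Sh3bp5 (Pearson r = 0.86), followed by the endothelial cadherin gene Cdh5 (0.84) and Smagp (0.83). Efna1 was most alike to Rasip1 (0.88), Efnb1 to Rhoj (0.91), and Sema6a to Cpd (0.86). Libraries and clusters share cells and depth in these columns, so the values are a description.

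In the other pairs ligand and receptor did not have the same highest cluster in all 3 libraries. Sema3e was highest in melanotrope-like cells, at 41.0 and 45.1 CPM in TpitWT and TpitHT, and its receptor Plxnd1 in endothelial-like cells, where Sema3e had 0 counts in all 3 libraries. Of the Sema3e counts, 65.5% and 70.8% lay in the melanotrope-like cluster, where 23.4% and 30.3% of cells had a count. The corticotrope-like cluster, which shares Pomc and Tbx19 with it, had 1 and 2 Sema3e counts in all, at 0.125 and 0.208 CPM. The 2 Pomc-expressing clusters thus differed widely for this ligand.

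Epha5, a receptor of class A ephrins, had the reverse order. It was at 206 and 163 CPM in the corticotrope-like cluster, the highest of any cluster in both libraries, and at 16.7 and 19.3 CPM in the melanotrope-like cluster. Its counts were found in 66.3% and 62.9% of corticotrope-like cells and in 9.18% and 11.5% of melanotrope-like cells. Cluster 11 followed at 97.8, 108 and 61.3 CPM, and cluster 13 at 56.7, 72.6 and 107 CPM. The genes most alike to Epha5 were the cell adhesion genes Cntn1 (r = 0.86) and Ncam1 (0.84) and the potassium channel gene Kcnk2 (0.83). Ephb2, a receptor of class B ephrins, was led by the melanotrope-like cluster at 23.4 and 27.4 CPM, with 13.9 and 10.5 CPM in the corticotrope-like cluster.

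The upstream sequences of Epha5 and Sema3e are shown because each gene was highest in 1 of the 2 clusters that the TpitKO library lacks. For Efna1 the sequence that holds the T-box core letters is shown. Each sequence is the 250 bases before a RefSeq start on the gene's own strand, from the RefSeq table of build GRCm38.p6. Capitals mark a T-box core.
Epha5, chr5:84417383-84417632, minus strand: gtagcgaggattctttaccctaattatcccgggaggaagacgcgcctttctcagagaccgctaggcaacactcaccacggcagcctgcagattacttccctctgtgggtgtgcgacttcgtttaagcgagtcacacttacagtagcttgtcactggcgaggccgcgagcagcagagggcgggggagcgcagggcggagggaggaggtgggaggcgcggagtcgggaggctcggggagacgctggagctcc
Sema3e, chr5:14025026-14025275, plus strand: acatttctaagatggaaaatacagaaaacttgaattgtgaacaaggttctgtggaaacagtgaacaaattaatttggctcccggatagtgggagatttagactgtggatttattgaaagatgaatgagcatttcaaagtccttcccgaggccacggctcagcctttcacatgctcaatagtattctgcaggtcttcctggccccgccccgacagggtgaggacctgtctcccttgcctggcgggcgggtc
Efna1, chr3:89280952-89281201, minus strand: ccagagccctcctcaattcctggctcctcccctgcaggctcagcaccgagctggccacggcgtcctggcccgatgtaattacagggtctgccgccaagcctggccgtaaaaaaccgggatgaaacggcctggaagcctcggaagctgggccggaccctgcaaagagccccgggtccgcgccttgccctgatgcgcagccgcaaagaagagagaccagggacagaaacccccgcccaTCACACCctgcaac
The T-box core searched was TCACACC or its reverse complement GGTGTGA, and the bicoid-type homeobox core, the motif of the Pitx factors of the pituitary, was TAATCC or GGATTA. The windows searched ran from 250 bases before to 50 bases after each start, and 43 of the 49 genes matched 57 of them. A T-box core was found in 3 windows (5.26%), against 3.98% of all 32851 windows in the table. These were Efna1, 14 bases before the start, Sema6c, 214 bases before it, and Sema4a, within the 50 bases after it. Efna1 and Sema6c each also had another window, without a match. Their matched starts lie inside the annotated genes. A bicoid-type core was in 0 of the 57 windows, against 7.06% of all windows. Letters absent from these windows say nothing of sites elsewhere.

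Among the class A genes counted in lactotrope-like cells were Efna5, Epha7 and Epha6. Efna5 was at 36.6, 35.4 and 40.3 CPM there, the highest level in TpitWT and TpitHT but exceeded in TpitKO by cluster 17 at 77.1 CPM (50 cells). Epha7, one of its receptors, was at 29.3, 28.1 and 24.6 CPM in the lactotrope-like cluster, although cluster 13 was higher in TpitWT and TpitKO (47.9 and 51.1 CPM) and the thyrotrope-like cluster in TpitHT (38.3 CPM). Epha6 was led by the lactotrope-like cluster at only 4.08, 2.64 and 4.59 CPM. Ligand and receptor of this pair thus occurred in the same large cluster.

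The stem-cell-like cluster led Plxnb1, the receptor of semaphorin 4D, at 56.8, 49.5 and 65.3 CPM. Its ligand gene Sema4d was highest in immune cells: 54.9 and 51.1 CPM in the lymphoid-like cluster of TpitWT and TpitKO, and 31.4, 42.3 and 43.9 CPM in the macrophage-like cluster 8. The lymphoid-like cluster of TpitHT held 17 cells. Sema4b was at 50.7, 40.4 and 43.5 CPM in stem-cell-like cells, and Plxnb2 at 85.9, 85.8 and 88.3 CPM. Sema6d was high in stem-cell-like (62.9, 60.4 and 46.4 CPM) and endothelial-like cells (54.9, 72.1 and 93.4 CPM). Ephb3 was at 17.6, 14.6 and 10.3 CPM in the stem-cell-like cluster, above every other cluster in TpitWT and TpitHT.

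Fibroblast-like cells led Sema5a, a semaphorin with thrombospondin repeats, at 69.5, 96.7 and 81.9 CPM. The next clusters were the corticotrope-like cells in TpitWT and TpitHT (21.3 and 22.4 CPM) and cluster 1 in TpitKO (17.05 CPM). Sema3a, which repels axons through neuropilin 1, was led by the same cells at 27.8, 15.8 and 33.6 CPM, but the melanotrope-like cluster equalled them at 27.8 and 15.3 CPM. Efnb1 was at 73.0, 126 and 98.0 CPM in fibroblast-like cells, below cluster 9 by less than the counting intervals.

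The pituicyte-like cluster 18 held 107 TpitKO cells but 9 and 2 in TpitWT and TpitHT, so its levels come from 1 library. It had the highest TpitKO level of Plxnb2 (169 CPM), Plxnc1 (139 CPM) and Epha4 (124 CPM), the last against 32.4 CPM in endothelial-like cells. Plxnc1 is the receptor of semaphorin 7A. In the other libraries its highest levels were in the macrophage-like cluster of TpitWT (17.1 CPM) and the stem-cell-like cluster of TpitHT (25.4 CPM).

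**Figure D3:**
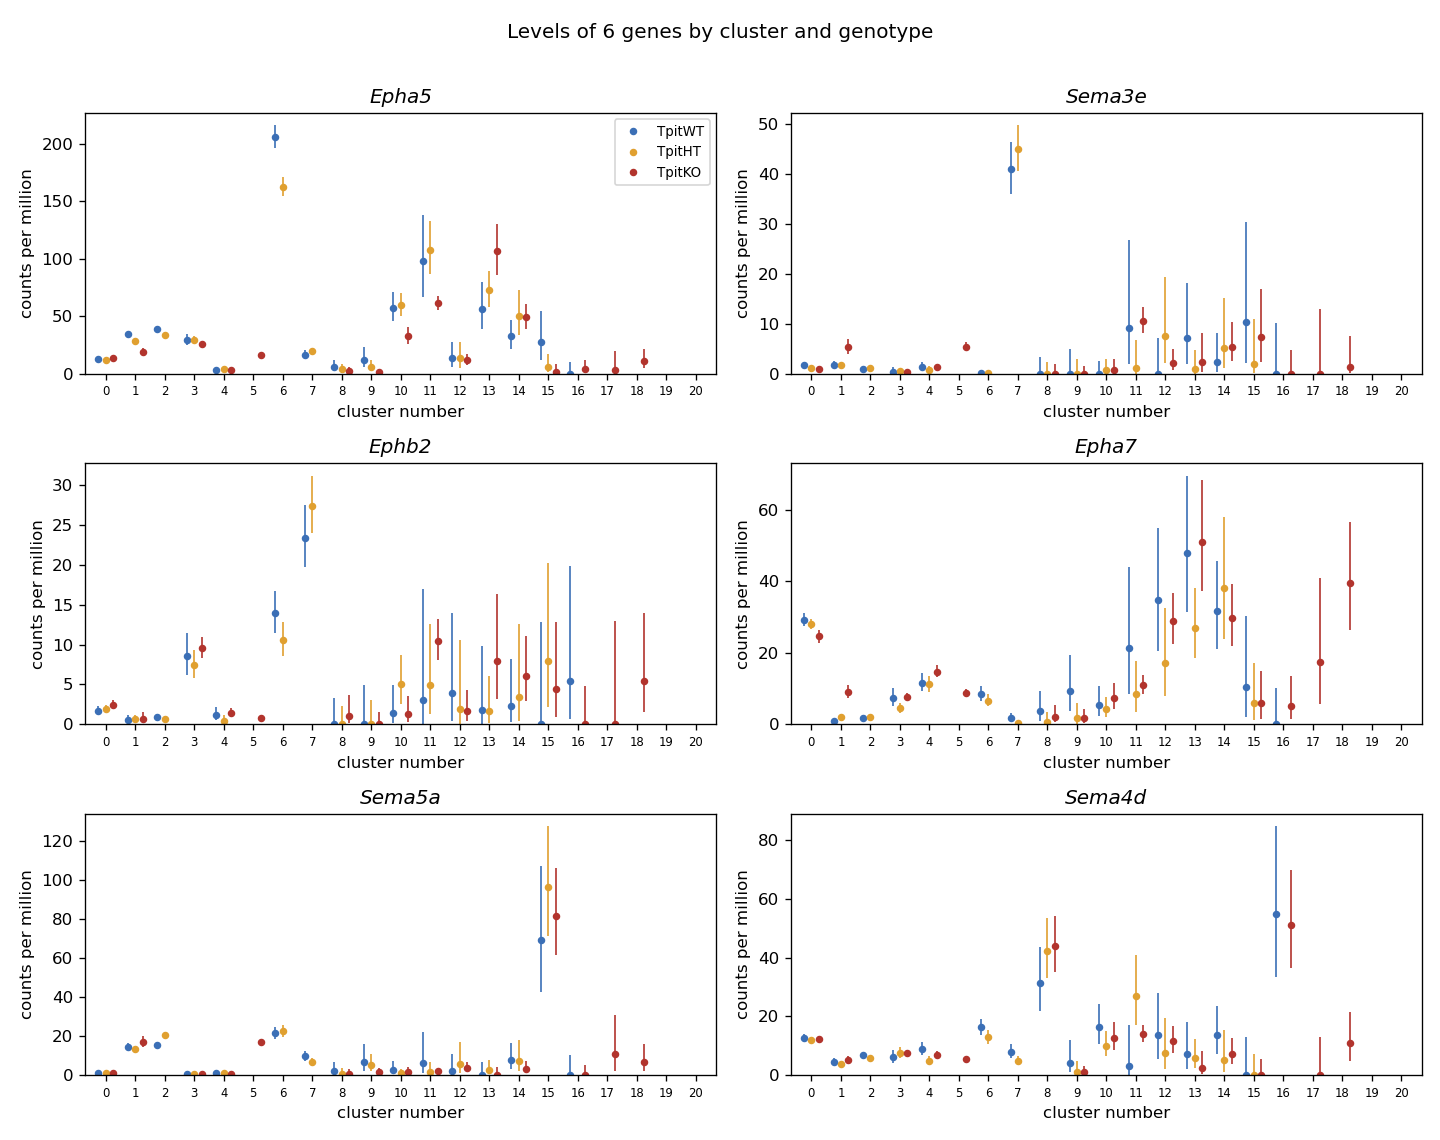
Levels in CPM (y axis, linear) of Epha5, Sema3e, Ephb2, Epha7, Sema5a and Sema4d in each cluster of at least 50 cells (x axis), by library, with 95% counting intervals. Epha5 peaks in cluster 6 and Sema3e in cluster 7, both without TpitKO cells, and Sema5a peaks in cluster 15 in all 3 libraries.

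The TpitKO library was then compared with TpitWT within clusters. A gene entered where it had 50 or more counts in the 2 libraries together, and a CPM ratio of at least 2 either way was recorded. The share of all genes passing the same rule is given as the background. In the somatotrope clusters 1, 2 and 5, 5 of 26 genes were higher in TpitKO (background 4.73%) and 2 lower (background 2.86%). Their median log2 ratio was 0.13, below the 0.21 of all genes. With totals that leave out hormone and mitochondrial genes, the median of all genes moved to −0.01, and 4 were higher and 2 lower (backgrounds 2.80% and 4.02%). With the authors' scaled counts, 5 were higher and 5 lower (backgrounds 7.39% and 8.82%). All 5 higher genes had a mean level under 10 CPM, and none passed 2-fold with 10 CPM added to both values.

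Epha7 was the gene with the largest ratio there. It was at 1.42, 2.06 and 8.74 CPM in the somatotrope clusters, 6.16-fold higher in TpitKO than in TpitWT (interval 4.69 to 8.20). TpitWT and TpitHT were low and TpitKO high, with intervals that did not overlap TpitKO. Within cluster 1, which all libraries filled, Epha7 was at 0.795, 2.06 and 9.04 CPM, an 11.4-fold higher level (6.06 to 23.6) from 11, 38 and 88 counts. The summed level of 6 lactotrope markers, which include Prl, also differed in cluster 1: 4859, 4306 and 10831 CPM, with none of them at 0. Epha7 counts per 1000 Prl counts were 0.167, 0.487 and 0.846 in cluster 1 and 0.211, 0.199 and 0.145 in the lactotrope-like cluster. In the Prl-led cluster 4 they were 0.0224, 0.0226 and 0.0297. The part of RNA from other cells in the Epha7 ratio was not tested.

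Sema3e, the melanotrope-led ligand, was at 1.21, 1.35 and 5.39 CPM in the somatotrope clusters, 4.45-fold higher in TpitKO (3.28 to 6.12). In cluster 1 it was at 1.66, 1.68 and 5.34 CPM, 3.21-fold higher (1.93 to 5.5). TpitWT and TpitHT were level in both cases and TpitKO stood above them, in a library with no cells of the melanotrope-like cluster.

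Sema6a levels of 0.664, 0.801 and 2.99 CPM made TpitKO 4.5-fold higher (2.98 to 6.99). Plxna2, its receptor, had levels of 2.43, 3.0 and 6.16 CPM, a 2.54-fold higher value (2.02 to 3.22). Sema4a, a membrane semaphorin led by the lymphoid-like cluster, was at 0.893, 0.873 and 1.85 CPM, 2.08-fold higher (1.40 to 3.14). The ligand and its receptor were thus both higher in TpitKO, at levels far under those of cluster 9.

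Epha1 and Epha5 were the 2 lower genes, and for both TpitHT lay between the other libraries. Epha1 was at 5.26, 2.53 and 1.08 CPM, 4.86-fold lower in TpitKO (3.52 to 6.85), and in cluster 1 at 5.63, 2.61 and 0.616 CPM. Epha5 levels of 37.5, 31.6 and 17.2 CPM made TpitKO 2.17-fold lower (1.99 to 2.38). In cluster 1 alone Epha5 was at 34.3, 28.3 and 19.2 CPM, 1.79-fold lower, under the 2-fold rule. Pomc, which corticotropes make, was at 593, 494 and 12.6 CPM in the somatotrope clusters. Epha5 counts per 1000 Pomc counts were 63.1, 64.1 and 1364 there. In TpitWT and TpitHT they were 1.58 and 1.08 in the corticotrope-like cluster and 3.75 and 4.43 in the endothelial-like cluster. The stem-cell-like cluster of TpitWT and TpitHT had 29.0 and 67.8. The part of RNA from other cells in the Epha5 ratio was not tested.

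**Figure D4:**
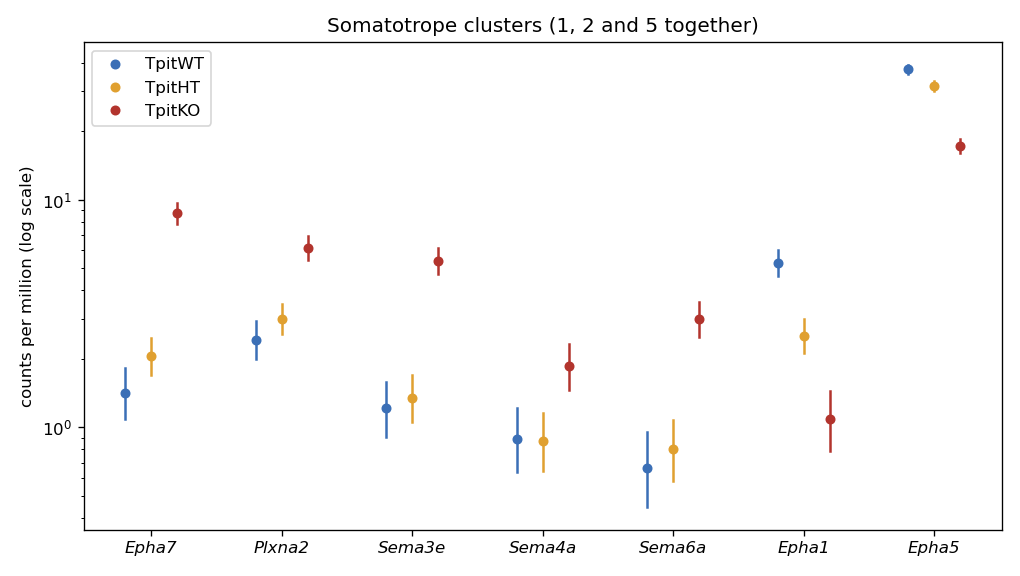
Levels in CPM (log axis) of 7 genes in the somatotrope clusters 1, 2 and 5 together, by library, with 95% counting intervals. Epha7, Plxna2, Sema3e, Sema4a and Sema6a lie higher in TpitKO, and Epha1 and Epha5 lower.

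In cluster 1 by itself, 3 of 16 genes were higher (Epha7, Plxna2 and Sema3e; background 3.9%) and 1 was lower (Epha1; background 2.06%). Plxna2 was at 1.81, 1.85 and 4.83 CPM there. Under totals without hormone and mitochondrial genes, 3 were higher and 4 lower (backgrounds 2.16% and 3.06%). Under the authors' scaled counts, 3 were higher and 4 lower as well (backgrounds 2.23% and 3%).

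In the lactotrope-like cluster, none of 30 genes was higher (background 1.03%) and 2 were lower (background 1.92%). Efnb2 was at 6.61, 5.95 and 3.23 CPM, 2.05-fold lower in TpitKO (1.60 to 2.64). Ephb6, an Eph receptor without kinase activity, was at 1.64, 0.886 and 0.748 CPM, 2.19-fold lower (1.30 to 3.80). For Efnb2 only TpitKO was low, whereas for Ephb6 TpitHT lay near TpitKO. The median log2 ratio of the 30 genes was −0.25, against −0.06 for all genes, and 23 of the 30 ratios were below 1. For TpitHT against TpitWT, 26 of 32 ratios were also below 1 (median log2 ratio −0.14). For TpitKO against TpitHT, 16 were below 1 and 16 above (median −0.01). Under either other scaling 1 gene was lower (backgrounds 1.72% and 1.68%).

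In the Prl-led cluster 4, 1 of 19 genes was higher (background 2.47%) and none lower (background 0.752%). Sema3a was at 2.47, 2.33 and 5.15 CPM, 2.08-fold higher in TpitKO (1.27 to 3.60). TpitKO held 1463 cells there against 592 in TpitWT, so the 50-count rule could be met mostly through TpitKO. No gene passed 2-fold under either other scaling (backgrounds 1.79% and 1.56% higher, 0.979% and 1.08% lower).

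In the gonadotrope-like cluster, 3 of 29 genes were higher (background 2.47%) and none lower (background 2.5%). TpitKO held 1662 cells there against 449 in TpitWT. The 50-count rule could thus be met mostly through TpitKO, and this count leans upward. With a mean level of at least 10 CPM as the rule, none of 8 genes passed (backgrounds 0.410% higher and 1.26% lower). Ephb1 was at 3.18, 2.11 and 8.19 CPM, 2.57-fold higher in TpitKO (1.54 to 4.60), with TpitWT and TpitHT both low. Epha4 was at 0.795, 1.91 and 2.90 CPM, 3.65-fold higher (1.36 to 13.8) on 4 TpitWT counts, and TpitHT lay in between. Sema6a was at 0.795, 2.91 and 2.90 CPM, so that TpitHT and TpitKO were level and the TpitWT library, with 4 counts, was low.

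In the endothelial-like cluster, Sema3g was the only one of 17 genes higher by 2-fold (background 4.41%), and none was lower (background 2.11%). It was at 13.4, 28.7 and 38.8 CPM, 2.90-fold higher in TpitKO than in TpitWT (1.51 to 6.25), with 10 counts in TpitWT and TpitHT near TpitKO. TpitKO held 552 cells of this cluster against 207 in TpitWT, so the 50-count rule could be met mostly through TpitKO. Ratios were above 1 for 16 of the 17 genes, Sema6b (45.5, 34.4 and 33.7 CPM) being the exception, and above the median ratio of all genes for 15. With totals that leave out hormone and mitochondrial genes, 13 stayed above 1, and Efnb1, Epha4 and Ephb4 moved below. The median log2 ratio of the 17 genes was 0.30, against 0.11 for all genes. For TpitHT against TpitWT, 11 of 14 ratios were also above 1, with a median log2 ratio of 0.40 (0.11 for all genes). For TpitKO against TpitHT, 8 of 17 were above 1 and 9 below, with a median of −0.02 (0.03 for all genes). Somatotrope markers summed to 94535, 39613 and 26903 CPM in this cluster and erythroid markers to 929, 14723 and 1579 CPM. The part of RNA from other cells in these ratios was not tested further.

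Of 15 genes compared in the stem-cell-like cluster, none was 2-fold higher (background 1.75%) or lower (background 1.14%), and the median log2 ratio was 0.04 (0.01 for all genes). Plxnb2, differed 1.03-fold (0.822 to 1.29). Only 2 genes could be compared in the macrophage-like cluster 8 (backgrounds 1.85% and 2.24%), and neither passed. Values of this kind do not show that levels were alike between animals.

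Over all cells, where the make-up of the library enters, 10 of 47 genes were higher in TpitKO (background 5.79%) and 1 was lower (background 2.55%). The higher genes were Efna4, Epha2, Epha10, Ephb1, Ephb4, Plxnd1, Sema3d, Sema3g, Sema6a and Sema7a. Each had a mean level under 10 CPM over all cells. Of the 10, 6 were led by the endothelial-like cluster, whose share of cells was 1.84%, 2.19% and 4.12%, 2.23-fold larger in TpitKO than in TpitWT. Plxnd1 was at 3.15, 3.90 and 8.77 CPM over all cells, 2.78-fold higher (2.46 to 3.15), but 1.23-fold (1.04 to 1.47) within cluster 9. Sema7a was 3.14-fold higher over all cells and 1.32-fold within cluster 9. Across the 13 genes that cluster 9 led, the median ratio was 1.96 over all cells and 1.25 within cluster 9.

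**Figure D5:**
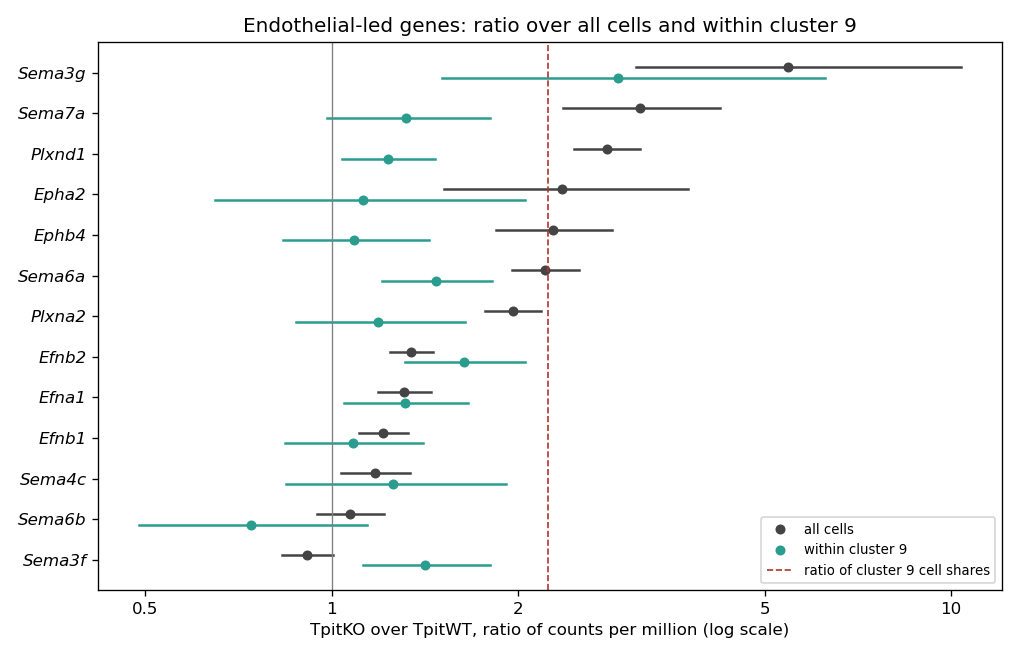
Ratio of CPM, TpitKO over TpitWT, for the 13 genes led by the endothelial-like cluster (rows), over all cells (dark) and within cluster 9 (green), with 95% counting intervals on a log axis. The dashed line is the ratio of the cluster's cell shares, 2.23, which is not the ratio of its shares of counts. Mean counts per cell were 3610 (TpitWT) and 4250 (TpitKO) in cluster 9, and 9561 and 9935 over all cells. The 6 genes 2-fold higher over all cells had smaller ratios within the cluster. These were 1.09 (Ephb4), 1.12 (Epha2), 1.23 (Plxnd1), 1.32 (Sema7a), 1.47 (Sema6a) and 2.90 (Sema3g).

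In the TpitKO library Ephb1 and Epha10 were counted mostly in gonadotrope-like cells. The share of cells in that cluster was 4.0%, 4.91% and 12.4%, 3.1-fold larger in TpitKO than in TpitWT. Ephb1 was at 0.652, 0.722 and 1.89 CPM over all cells, and 22.9%, 19.1% and 69.4% of its counts lay in those cells. Epha10, an Eph receptor without kinase activity, was at 1.09, 1.56 and 2.87 CPM over all cells and at 6.56, 7.63 and 9.5 CPM within gonadotrope-like cells. For Epha10 the level within the cell type therefore differed by less than the level over all cells.

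Epha5 was the 1 lower gene over all cells, at 38.6, 31.3 and 18.4 CPM, 2.10-fold lower in TpitKO (1.99 to 2.21). The corticotrope-like cluster held 39.7% and 32.7% of its counts in TpitWT and TpitHT. Outside clusters 6 and 7 it was at 25.7, 22.7 and 18.4 CPM. Sema3e and Ephb2, led by the absent melanotrope-like cluster, were at 3.57, 3.5 and 2.84 CPM and at 3.75, 3.75 and 3.26 CPM over all cells, and outside clusters 6 and 7 at 1.41, 1.15 and 2.84 CPM and at 1.59, 1.79 and 3.26 CPM. Leaving out clusters with under 10 TpitKO cells, 17 genes were higher and 0 lower, and the share over all genes was not computed for that setting. With the authors' scaled counts, which weigh each cluster about equally, 1 was higher (background 4.73%) and 0 lower (background 8.12%).

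TpitHT was compared with TpitWT in the clusters that TpitKO lacks. In the corticotrope-like cluster, none of 24 genes was higher (background 0.977%) and 3 were lower (background 2.53%): Plxnb2 (33.9 and 16.8 CPM, 2.02-fold, 1.65 to 2.47), Sema4g (20.3 and 9.48 CPM, 2.14-fold, 1.65 to 2.80) and Plxna3 (9.03 and 3.96 CPM, 2.28-fold, 1.52 to 3.47). Epha5 was 1.27-fold lower (1.18 to 1.36). The median log2 ratio of the 24 genes was −0.34, against −0.10 for all genes. In the melanotrope-like cluster none of 22 genes was 2-fold higher (background 1.04%) or lower (background 2.04%), and Sema3a was lower by less than that (27.8 and 15.3 CPM, 1.82-fold, 1.44 to 2.31).

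Elsewhere TpitHT differed from TpitWT by 2-fold for few genes. In cluster 2, 0 of 24 were higher (background 0.852%) and 2 lower (background 0.905%): Efna1 (7.51 and 3.25 CPM) and Epha1 (5.14 and 2.48 CPM). The same 2 genes were lower in the somatotrope clusters (2 of 26, background 1.04%), and none was higher (background 0.746%). In cluster 1, 0 of 17 were higher (background 0.778%) and Epha1 was lower (background 0.954%). Plxnc1 was 2.35-fold higher (1.34 to 4.36) in the stem-cell-like cluster (1 of 14, background 1.13%), and none was lower (background 0.736%). Over all cells Sema3g was higher (1 of 47, background 0.675%) and none was lower (background 1.11%). No gene passed 2-fold in cluster 0 (32 compared, backgrounds 0.394% higher and 0.758% lower), cluster 3 (24 compared, 0.524% and 1.04%), cluster 4 (12 compared, 0.599% and 0.543%), cluster 8 (2 compared, 1.16% and 1.2%) or cluster 9 (14 compared, 2.46% and 1.82%). These comparisons share the TpitWT library with those above.

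Cluster 11 held 53, 107 and 871 cells and had no name by the marker lists. The libraries differed there in markers of the Pomc-expressing cells: Pomc was at 19954, 33462 and 196 CPM, Tbx19 at 61.1, 76.2 and 13.6 CPM, and Pax7, a melanotrope factor gene, at 0, 0 and 37.7 CPM. Their part in the differences that follow was not tested. Against TpitHT, 12 of 22 genes were higher in TpitKO (background 10.2%) and none lower (background 2.61%). The 50-count rule was met mostly through the larger TpitKO group, so this count leans upward. With a mean level of at least 10 CPM as the rule, 4 of 11 were higher (background 5.94%) and the median log2 ratio was −0.12. Efna5 was at 8.60 and 23.5 CPM in TpitHT and TpitKO, 2.74-fold higher (1.30 to 6.92). Sema3e was at 1.23 and 10.6 CPM, 8.61-fold on a single TpitHT count (1.49 to 345).

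Partners of these families were read from a list of 71 genes: 9 coreceptors and other semaphorin partners, 37 signalling genes downstream of plexins and Eph receptors, and 25 genes of other guidance families. In the endothelial-like cluster, 5 of 35 compared were 2-fold higher in TpitKO (background 4.41%) and 0 lower (background 2.11%): the netrin receptor gene Unc5b (8.03 and 43.9 CPM in TpitWT and TpitKO), Robo2 (9.37 and 43.1), Robo3 (14.7 and 36.2), Ntn4 (44.2 and 92.9) and Rgmb (10.7 and 22.6). All 5 belong to the other guidance families. Against TpitHT, only Unc5b and Robo2 of the 5 were 2-fold higher, and Robo3 was also 2-fold higher in TpitHT than in TpitWT. In TpitWT, 3 counts in this cluster made 4.02 CPM, so the levels of Unc5b, Robo2 and Rgmb there rest on few counts. These genes met the 50-count rule mostly through TpitKO (552 cells against 207). In the somatotrope clusters 6 of 47 were higher (background 4.73%) and 2 lower (background 2.86%). The largest ratios were those of Dpysl3, a collapsin response mediator downstream of semaphorins (0.229 and 3.61 CPM), Nrp2 (0.343 and 2.36 CPM) and Slit2 (1.40 and 4.84 CPM), and the lower ones were Met (1.28 and 0.120 CPM) and Mical1. Against TpitHT, Dpysl3, Nrp2, Slit2 and Mical1 also passed 2-fold in the same direction. Met was 2-fold lower in TpitHT than in TpitWT as well. In gonadotrope-like cells 4 of 48 were higher (background 2.47%), among them the small GTPase gene Rnd3 (0.397 and 4.58 CPM) and Slit2 (4.97 and 17.1 CPM), and 2 were lower (background 2.5%), Nrp2 (22.1 and 7.63 CPM) and Slit1 (3.78 and 1.78 CPM). Against TpitHT, Rnd3, Slit2 and Nrp2 also passed 2-fold in the same direction in gonadotrope-like cells, and Slit1 was not among those that did. Nrp2 thus lay higher in TpitKO in the somatotrope clusters and lower in gonadotrope-like cells.

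The positions of all 51 genes in the deposited table matched GENCODE M21 on GRCm38 to within 1 base. By that annotation Epha5 spans chr5:84054761-84417382, Sema3e chr5:14025276-14256689, Plxnd1 chr6:115954811-115995005 and Epha7 chr4:28813131-28967499. Of the 51, 13 overlap another gene on the same strand, Sema3e, Efnb2, Epha4 and Plxna2 among them, and 20 on the other strand. Reads in such overlaps may have been assigned to either gene.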

How the data were processed

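The authors deposited unnormalized counts for each gene, added up by cluster within a genotype (61 columns), with the number of cells having a count, recorded as unit other. A further deposited table, unit signal, held the same counts multiplied by 1 factor per column and served as an alternative. Another deposited table gave each barcode its genotype and cluster. Tools named, without steps, in the submitters' processing notes are DESeq2, Seurat 3.1 and Cell Ranger 5, with builds mm10 and GRCm38. How counts were collapsed, strand use in counting and doublet removal are not given in the sources used here. No counts per single cell were used.

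Rows of 1 symbol were added. CPM was a count over the column's total times 1000000. Poisson (levels), Clopper-Pearson (shares) and conditional binomial (ratios) 95% intervals were exact and cover counting error only, as do the limits of 3 counts used for a group at 0. Comparisons needed 100 cells in both genotypes, and the lists of markers and partners, the genes and the rules were chosen with earlier results of these data known. Clusters were named where 3 or more markers were among the 50 leading genes, except cluster 12, which met this for erythroid markers and kept its number. Values were given mainly for genes past 2-fold with the same direction against TpitHT, for genes led by a cluster and for ligand and receptor pairs. For partners with the largest folds, values were given for TpitWT and TpitKO, and Mical1 was named only. On simulated counts the scripts recovered 200 of 200 changed genes in cluster 1. The planted changes were well past 2-fold, in genes with well over 50 counts, so near-full recovery was set by the design. Recovery of genes close to the limits of 2-fold and 50 counts was not tested. Python 3.11.15, pandas 2.3.3 and scipy 1.17.1 were used.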

Additional observations from a re-analysis of the deposited data

Results flagged for a closer look

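Counting intervals of the ratio TpitKO over TpitWT lay wholly above 1 in one cluster and wholly below 1 in another, with the same directions against TpitHT, for 4 genes. The differences between clusters were not tested, and the intervals leave out the spread between cells and animals. The share of all genes that meet this rule was not computed, so the 4 has no background beside it.

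Efnb2, the ephrin-B2 gene, had a ratio of 0.488 in the lactotrope-like cluster and 0.505 in cluster 1, but 1.64 (1.31 to 2.05) in the endothelial-like cluster. Plxna2 had ratios of 0.567 in the lactotrope-like cluster, 2.67 in cluster 1 and 1.59 in the gonadotrope-like cluster. Epha7 had a ratio of 0.841 in the lactotrope-like cluster, 1.28 (1.003 to 1.63) in the Prl-led cluster 4 and 11.4 in cluster 1. The lactotrope-like cluster held 70.3%, 77.4% and 39.2% of its counts in TpitWT, TpitHT and TpitKO. Sema6d had ratios of 1.69 in the gonadotrope-like, 1.70 in the endothelial-like and 0.738 (0.556 to 0.981) in the stem-cell-like cluster. In clusters 1, 4 and 9 the ratios of all genes were also centred above 1, with median log2 ratios of 0.19, 0.13 and 0.11.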

How the results depend on the processing

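Counts of genes past 2-fold were recomputed under other scalings, a constant of 10 CPM added to both values, minimums of 20 counts, and a mean level of at least 10 CPM, the last chosen after seeing the data. Of 228 such counts over all settings, 156 stayed within 1.5 times and 72 did not. Of 153 log2 ratios recomputed for genes past 2-fold, 94 stayed the same, 59 moved and 0 changed sign. Among all genes compared, including those under 2-fold, totals without hormone and mitochondrial genes turned the direction of 6 genes in the somatotrope clusters (Ephb2, Plxna1, Plxnb2, Sema4b, Sema5a and Sema6d), 3 in cluster 1 (Efnb1, Sema4b and Sema4d) 3 in cluster 9 (Efnb1, Epha4 and Ephb4) and 1 each in clusters 0, 3 and 4 and over all cells, for TpitKO against TpitWT. For TpitHT against TpitWT they turned 6 over all cells and 1 each in clusters 2 and 3, and 1 in cluster 11 for TpitKO against TpitHT. No paired analysis was possible because genotypes were not replicated.

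With totals that leave out hormone and mitochondrial genes, TpitKO against TpitWT gave 1 lower gene in cluster 0 (background 1.72%). It gave 4 lower in cluster 1 (3.06%) and 0 higher in cluster 4 (1.79%). With the authors' scaled counts the same 3 counts were 1, 4 and 0 (backgrounds 1.68%, 3% and 1.56%). The somatotrope clusters had 5 lower (8.82%), and all cells had 1 higher and 0 lower (4.73% and 8.12%). TpitHT against TpitWT then had 2 lower in cluster 1 (1.68%) and 1 lower in cluster 4 (1.13%). It had 1 higher and 4 lower in the somatotrope clusters (4.81% and 8.25%) and 1 lower over all cells (7.34%). TpitKO against TpitHT had 1 lower in cluster 11 (2.98%).

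With 10 CPM added, which outweighs most levels here, the counts above 0 in clusters 0, 1, 2, 3, 4, 6, 10 and 11, the somatotrope clusters and all cells became 0. At most 1.87% of all genes (cluster 11, higher) passed in these. With a mean of at least 10 CPM, TpitKO against TpitWT gave 0 calls in clusters 0, 1, 3 and 4 (at most 1.38%). It gave 2 higher in cluster 8 (2.39%), and 1 higher and 1 lower in cluster 10 (2.06% and 1.66%). The somatotrope clusters had 0 higher and 1 lower (1.12% and 1.00%), and all cells had 0 higher (1.06%). TpitHT against TpitWT gave 0 lower in clusters 1 and 2 and the somatotrope clusters (0.141%, 0.186% and 0.124%). It gave 1 higher in clusters 8 and 9 (2.31% and 4.74%) and 0 higher over all cells (0.0975%). Cluster 11 had 4 higher and 1 lower (5.94% and 3.25%).

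With 20 counts as the minimum, TpitKO against TpitWT gave 5 of 35 genes higher in cluster 3 (background 4.97%). In cluster 4 it gave 4 of 29 higher (background 5.06%), and in cluster 8, 2 of 9 higher (background 4.07%). Of 20 genes in cluster 9, 1 was lower (background 5.2%). In cluster 10, 2 of 26 were higher (background 3.73%) and 1 lower (background 2.9%). With this minimum, TpitHT against TpitWT gave 1 of 24 higher in cluster 1 (background 2.15%). Cluster 3 had 3 of 30 higher and 1 lower (backgrounds 1.81% and 2.5%), and cluster 4 had 1 of 21 lower (2.21%). Cluster 6 had 1 of 35 higher and 6 lower (1.97% and 4.85%), and cluster 7 had 1 of 30 lower (4.42%). Cluster 8 had 1 of 6 higher (3.5%) and cluster 9 had 1 of 18 higher (5.18%). Cluster 10 had 1 of 25 lower (2.7%), and all cells had 3 of 49 higher (1.83%). For TpitKO against TpitHT, cluster 11 had 2 of 32 lower (4.62%). Outside clusters with under 10 TpitKO cells, all cells gave 17 higher and 0 lower, and the share over all genes was not computed there. By the share of cells with a count, cluster 9 led 8 genes, and with 20 cells in place of 50, cluster 10 led 2. The causes were not tested beyond what each setting changes. For TpitKO against TpitWT the minimum of 50 counts left 19 of the 49 genes uncompared in cluster 0 and 47 in cluster 8, so that depth set which genes could be compared.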
